A study of Mus musculus with 21 samples.

Results

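The antioxidant response governed by the transcription factor Nrf2 was measured through 10 genes in the midbrain of mice given the neurotoxin MPTP, irisin or both. The genes were Nfe2l2, Keap1, Gclc, Gclm, Gsr, Txnrd1, Srxn1, Slc7a11, Hmox1 and Nqo1. They were chosen by gene name, each name matched a single row in both tables, and they were 10 of the 33829 genes listed for the pre-treatment experiment and of the 55385 genes listed for the delayed treatment experiment. All 10 passed the filter on low counts in both experiments, with 292 to 12536 reads per gene and mouse.

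RNA-seq covered 21 male C57BL/6 mice aged 6 weeks, in 7 groups of 3 mice, all injected intraperitoneally. MPTP (30 mg/kg per day, 5 days) is converted in the brain to a blocker of mitochondrial complex I that is toxic to dopaminergic neurons, and irisin (200 μg/kg per day, 5 days) is the part of the muscle membrane protein FNDC5 that is shed into the blood. In the pre-treatment experiment, control mice received ddH2O for 10 days, MPTP mice received ddH2O for 5 days and MPTP for 5 days, and irisin-MPTP mice received irisin before MPTP. In the delayed treatment experiment, the groups were control (ddH2O, 10 days), irisin alone, MPTP alone (each with 5 days of ddH2O) and MPTP followed by irisin. MPTP was given on the last 5 of the 10 days in the pre-treatment and on the first 5 in the delayed treatment experiment. The time since the last MPTP dose therefore differed between the experiments. The model is a toxin given over days to young animals, with no genetic change in any group. Each library came from a single mouse, and the mice of a group are separate animals by their labels. The tissue was called midbrain in the labels and nigral tissue dissected by hand in the methods, and all 8 markers of dopaminergic neurons searched, Th and Slc6a3 among them, had reads. Because bulk tissue was sequenced, fewer cells of a type cannot be told apart from less RNA per cell.

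Nrf2, encoded by Nfe2l2, is held in the cytoplasm by Keap1, which hands it to a ubiquitin ligase for degradation. Oxidants and electrophiles modify cysteines of Keap1, Nrf2 then accumulates in the nucleus, pairs with a small Maf protein and binds antioxidant response elements in the promoters of its targets. In the brain this response is best known from glia, above all astrocytes, which supply neurons with glutathione precursors. Oxidative stress is among the injuries attributed to MPTP.

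Coordinates below are those of the tables, which match GRCm38. The sensor pair consists of Nfe2l2 (chr2:75675513-75704641, minus strand) and Keap1 (chr9:21229730-21239361, minus strand). Glutathione synthesis is represented by the catalytic and the modifier subunit of glutamate-cysteine ligase, Gclc (chr9:77754535-77794485, plus strand) and Gclm (chr3:122245557-122270732, plus strand). Slc7a11 (chr3:49892526-50443614, minus strand) encodes the cystine carrier of system xc-, and Gsr (chr8:33652523-33698163, plus strand) encodes glutathione reductase. Txnrd1 (chr10:82833951-82897712, plus strand) encodes cytosolic thioredoxin reductase, and Srxn1 (chr2:152105516-152109322, plus strand) encodes sulfiredoxin, which repairs overoxidised peroxiredoxins. Hmox1 (chr8:75093621-75100589, plus strand) encodes haem oxygenase, and Nqo1 (chr8:107388225-107403206, minus strand) encodes a quinone reductase. Gclm overlaps the gene Gm17494 on the other strand, whose level was 35.8 to 179 CPM (a read count scaled to the depth of its library, with TMM factors), against 25.0 to 86.5 CPM for Gclm itself. The use of strand in counting was not given in the sources used here, so the counts of Gclm are uncertain to that extent. Keap1 overlaps Gm16754 on the other strand, which reached at most 3.31 CPM, and the other genes overlapping any of the 10 stayed below 1 CPM in every mouse.

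Promoter sequence was taken from RefSeq (GRCm38.p6, 250 bases before to 50 bases after each start), which matched 7 of the 10 genes and left Hmox1, Gclc and Gsr without an entry. Both strands were searched for TGACNNNGC, the core of the antioxidant response element. It was found in 4 of the 9 promoters listed for these 7 genes (a promoter each of Nfe2l2, Gclm, Txnrd1 and Srxn1), while 12.4% of all 32851 promoters in the same table held it. A variant of this core, TGAGNNNGC, was added after the values had been seen and was found in 2 of the 9 promoters (Srxn1 and Slc7a11), against 17.6% of all promoters. The AP-1 site TGACTCA was found in 1 of the 9 (Srxn1), against 5.2% of all promoters. Of the 7 genes with an entry, Srxn1 had the most matches. It also had the smallest p below, which did not pass the adjusted threshold, and a link between them was not tested. The sites upstream of a start are shown with their flanks, 5′ to 3′ on the strand of the gene and with the matched letters in capitals.
Nfe2l2, chr2:75704884-75704913, core: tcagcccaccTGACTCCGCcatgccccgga
Gclm, chr3:122245413-122245442, core on the other strand: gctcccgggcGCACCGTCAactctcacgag
Txnrd1, chr10:82859104-82859133, core on the other strand: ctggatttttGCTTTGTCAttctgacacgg
Srxn1, chr2:152105356-152105385, variant core on the other strand: tctactgagaGCCGACTCAtcctctctggg
Srxn1, chr2:152105411-152105440, AP-1 site on the other strand: ctcggagggccTGAGTCAccacgctgtgcg
Srxn1, chr2:152105469-152105498, variant core: aaattcacccTGAGTCAGCggccgggcgcg
Slc7a11, chr3:50443691-50443720, variant core on the other strand: taatgttggcGCTTTCTCAagctggagttt
The last Srxn1 window holds an AP-1 site (other strand) inside the variant core, so that these matches share letters. A further core match of Srxn1 began 29 bases after the start. The Txnrd1 match stood before a single one of the starts that RefSeq lists for this gene. A match describes letters, and binding was not measured.

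Levels between genes were compared per gene length, in FPKM as deposited. Srxn1 had the highest mean level in both experiments, with 24.6 FPKM (SD 4.76, n = 9) in the pre-treatment and 47.0 FPKM (SD 5.81, n = 12) in the delayed treatment experiment. Gclc followed with 17.8 ± 0.602 and 15.2 ± 0.496 FPKM (SD). Gclm, at 10.7 ± 0.985 and 10.1 ± 2.13 FPKM, and Keap1, at 9.96 ± 0.800 and 11.6 ± 1.11 FPKM, were within their spread of each other. The same holds for Txnrd1 (7.63 ± 1.29 and 9.07 ± 1.11 FPKM), Gsr (7.53 ± 0.356 and 8.30 ± 0.499 FPKM) and Nfe2l2 (6.67 ± 0.651 and 7.58 ± 0.707 FPKM). The lowest were Nqo1 (3.58 ± 0.594 and 4.05 ± 0.712 FPKM), Hmox1 (2.99 ± 0.390 and 4.33 ± 0.651 FPKM) and Slc7a11 (2.50 ± 0.305 and 2.07 ± 0.281 FPKM), of which Nqo1 and Hmox1 changed places between the experiments. The tables of the experiments were made separately, and differences between them were not tested. Srxn1 in all 12 mice of the delayed treatment experiment, at 36.6 to 55.6 FPKM, was above all 9 mice of the pre-treatment experiment, at 18.2 to 31.2 FPKM.

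**Figure D1:**
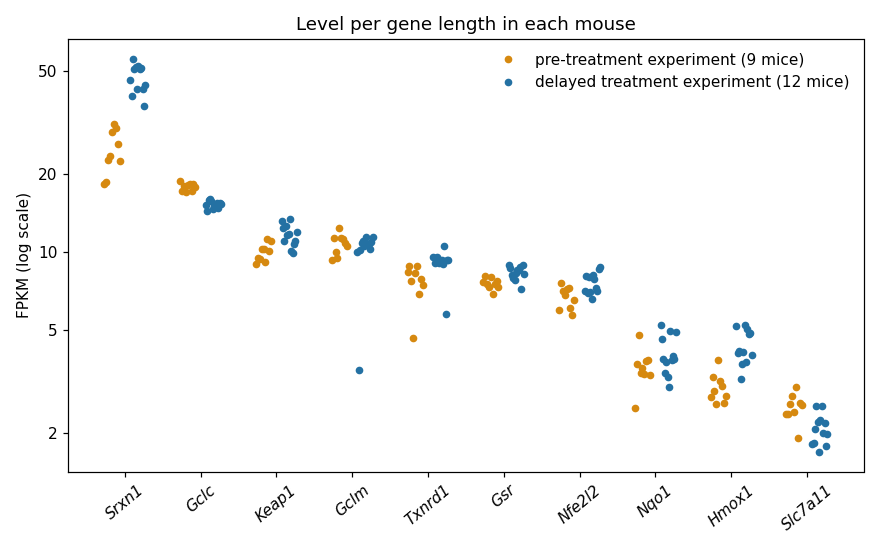
Level per gene length (FPKM, log scale) of the 10 genes, a point for each mouse, with the 9 mice of the pre-treatment experiment in orange and the 12 mice of the delayed treatment experiment in blue. Srxn1 is the highest gene in both, and the single low points belong to Gclm (3.51 FPKM) and Txnrd1 (4.63 and 5.77 FPKM).

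Across the 7 comparisons, 0 of 70 pairs of a gene and a comparison passed an adjusted p of 0.05 (edgeR quasi-likelihood test, Benjamini-Hochberg over all 22641 or 21922 tested genes). The smallest adjusted p was 0.554, and 5 pairs had an unadjusted p under 0.05. DESeq2 and limma also called 0 of the 10 genes in each comparison. The groups of 3 did not overlap in 8 of the 60 pairs that set 1 group against another. The smallest p that an exact two-sided permutation test allows with 3 mice against 3 is 0.1, so that test could not pass the threshold.

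**Figure D2:**
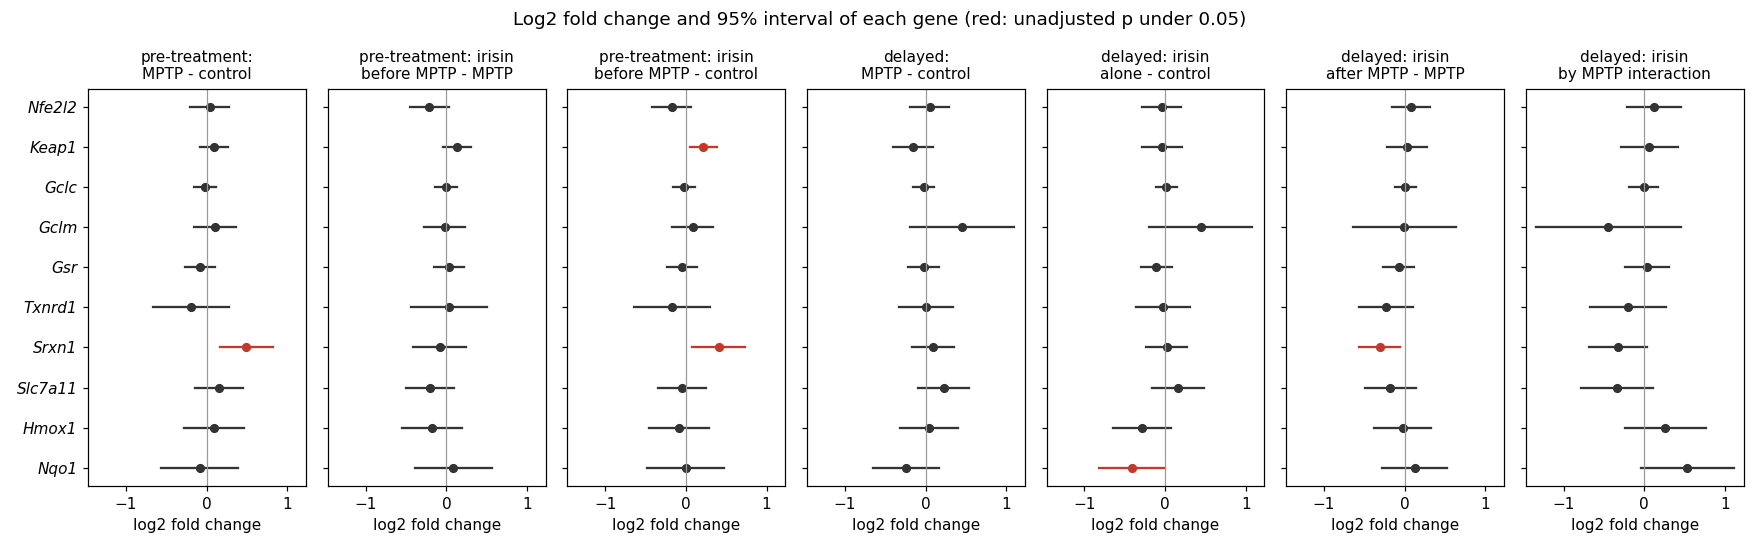
Log2 fold change (x axis) with its 95% interval from edgeR for each gene (rows) in the 7 comparisons (panels), with an unadjusted p under 0.05 in red. The 5 red points belong to Srxn1, Keap1 and Nqo1, and none of them passed the adjusted threshold.

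MPTP against control in the pre-treatment experiment had 0 of 10 genes called, where 0.0221% of all tested genes were called. A single gene, Srxn1, had an unadjusted p under 0.05 (6.03% of all tested genes) and no overlap between the groups (11.6%). The 95% interval lay within a 1.5-fold change in either direction for 8 genes and within 2-fold for all 10. For irisin before MPTP against MPTP, 0 genes were called (0.0707% of all tested genes), 0 had an unadjusted p under 0.05 (6.22%) and Nfe2l2 did not overlap (14.2%), with all 10 intervals within 1.5-fold. For irisin before MPTP against control, 0 genes were called (0.0707%), while Srxn1 and Keap1 had an unadjusted p under 0.05 (7.12%) and no overlap (13.6%). Here 8 intervals lay within 1.5-fold and all 10 within 2-fold.

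In the delayed treatment experiment, MPTP against control gave 0 called genes (0.132% of all tested genes), 0 with an unadjusted p under 0.05 (8.33%) and Gclm without overlap (16.2%). The 95% interval was within 1.5-fold for 8 genes and within 2-fold for 9. For irisin alone against control, 0 genes were called (0.109%), Nqo1 had an unadjusted p under 0.05 (8.97%) and Nqo1 and Gclm did not overlap (15.1%), with 7 intervals within 1.5-fold. MPTP followed by irisin against MPTP gave 0 called genes (0.00456%) and Srxn1 with an unadjusted p under 0.05 (3.90%) and without overlap (10.7%), with 9 intervals within 1.5-fold. The interaction, which asks whether the difference with irisin differed between mice with and without MPTP, gave 0 called genes (0.0411%) and 0 with an unadjusted p under 0.05 (5.57%). Its intervals were wider, and 4 were within 1.5-fold.

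**Figure D3:**
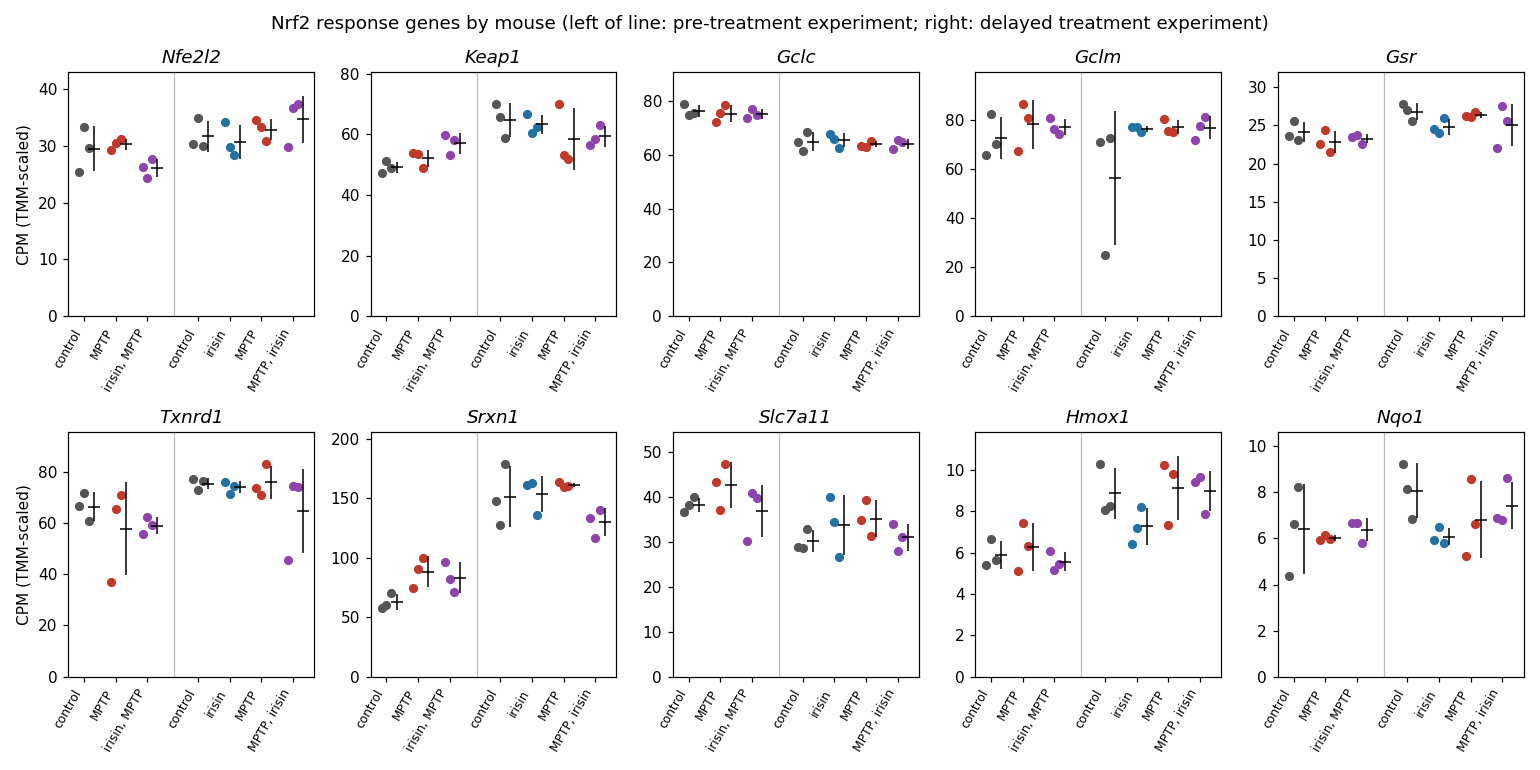
Level of each gene in each mouse (CPM, TMM-scaled, axes from 0), with the groups of the pre-treatment experiment left and those of the delayed treatment experiment right of the grey line, and the group mean with SD as a cross bar (n = 3). Srxn1 is the panel with the largest separation of MPTP from control mice in the pre-treatment experiment, and Gclm and Txnrd1 show single mice far below their groups.

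Nfe2l2, the gene of Nrf2 itself, was measured at 25.4, 33.3 and 29.7 CPM in the control mice 1 to 3 of the pre-treatment experiment, at 29.1, 30.4 and 31.1 CPM with MPTP, and at 26.3, 24.3 and 27.6 CPM with irisin before MPTP. MPTP mice lay inside the range of the control mice, and irisin-MPTP mice lay below all MPTP mice but overlapped the controls. The log2 fold change of irisin before MPTP against MPTP was -0.21 (SE 0.107, adjusted p = 0.866 from edgeR). Over the 12 mice of the delayed treatment experiment, Nfe2l2 ranged from 28.4 to 37.4 CPM, and every pair of groups compared overlapped.

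Keap1 was measured at 47.3, 51.1 and 48.8 CPM in control mice, 54.0, 53.5 and 48.8 CPM in MPTP mice and 59.9, 53.1 and 58.0 CPM in irisin-MPTP mice of the pre-treatment experiment. Irisin-MPTP mice were above all control mice and overlapped the MPTP mice. Their log2 fold change against control was 0.22 (SE 0.0750, 95% interval 0.046 to 0.39, adjusted p = 0.599 from edgeR), which did not pass. The delayed treatment experiment gave no such separation for Keap1, with 58.8 to 70.0 CPM in control mice, 60.6 to 66.7 CPM with irisin alone, 52.0 to 70.1 CPM with MPTP and 56.4 to 63.1 CPM with MPTP followed by irisin. Among MPTP mice, mouse 1 (70.1 CPM) stood above the others (53.0 and 52.0 CPM).

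Gclc was the steadiest of the 10 genes. Its highest mouse exceeded its lowest by 1.10-fold over the 9 mice of the pre-treatment experiment (72.0 to 78.9 CPM) and by 1.12-fold over the 12 mice of the delayed treatment experiment (61.2 to 68.3 CPM). Its SD between mice of a group was 0.0471 and 0.0547 on the log2 scale, against a median of 0.265 and 0.253 over all tested genes, and 1.76% and 2.95% of the tested genes had a smaller one. Every log2 fold change of Gclc was between -0.023 and 0.015, with 95% intervals that reached at most 0.19 in either direction.

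Gclm, whose product lowers the substrate need of the catalytic subunit, was measured at 65.6 to 86.5 CPM in all 9 mice of the pre-treatment experiment and overlapped in every comparison. Control mouse 2 of the delayed treatment experiment had 25.0 CPM, while control mice 1 and 3 had 71.1 and 72.7 CPM and the other 9 mice had 71.6 to 80.9 CPM. The difference of MPTP from control was 0.45 on the log2 scale (SE 0.290) with all mice and 0.098 without control mouse 2, and that of irisin alone from control was 0.44 (SE 0.290) and 0.088. The antisense neighbour Gm17494 had 169 CPM in that mouse, 118 and 179 CPM in control mice 1 and 3, and 35.8 to 132 CPM in the other 9 mice. Its part in the result was not tested.

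Gsr, which regenerates reduced glutathione, had 21.5 to 25.6 CPM and 22.0 to 27.8 CPM in the experiments, and the groups overlapped in all comparisons. Its log2 fold changes were between -0.11 and 0.035. Slc7a11, the cystine carrier, had 36.7 to 39.9 CPM in control mice, 37.1 to 47.3 CPM in MPTP mice and 30.2 to 40.8 CPM in irisin-MPTP mice of the pre-treatment experiment. MPTP mice also had the highest group mean of Slc7a11 in the delayed treatment experiment, with 35.2 ± 4.07 CPM against 30.1 ± 2.41 CPM in control mice (SD, n = 3). The log2 fold changes of MPTP against control were 0.15 (95% interval -0.14 to 0.45) and 0.22 (-0.095 to 0.54), and neither passed, with adjusted p = 0.922 and 0.740 from edgeR.

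Txnrd1 was measured at 60.7 to 71.9 CPM in control mice of the pre-treatment experiment and at 55.6 to 62.4 CPM in irisin-MPTP mice. MPTP mouse 1 had 37.0 CPM, while MPTP mice 2 and 3 had 65.3 and 70.9 CPM. After MPTP followed by irisin, mouse 1 had 45.7 CPM, far below the remaining 11 mice of the delayed treatment experiment (70.8 to 83.1 CPM). In the pre-treatment experiment the sign of the Txnrd1 difference rested on MPTP mouse 1, since MPTP against control was -0.20 on the log2 scale with all mice and 0.033 without it, and irisin before MPTP against MPTP changed from 0.031 to -0.21. In the delayed treatment experiment, MPTP followed by irisin against MPTP moved from -0.23 to -0.032 without the low mouse and kept its sign.

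Srxn1 gave the smallest p of all 70 pairs. In the pre-treatment experiment, the control mice had 57.6, 60.4 and 70.8 CPM, the MPTP mice 74.3, 90.6 and 99.9 CPM and the irisin-MPTP mice 96.7, 82.4 and 70.9 CPM. All 6 mice given MPTP were above all 3 control mice, although the lowest irisin-MPTP mouse and the highest control mouse were almost level. The log2 fold change of MPTP against control was 0.49 (SE 0.145, 1.40-fold with a 95% interval of 1.12 to 1.76, adjusted p = 0.815 from edgeR). That of irisin before MPTP against control was 0.41 (SE 0.145, adjusted p = 0.616 from edgeR), and neither passed the adjusted threshold. Irisin before MPTP differed from MPTP by -0.082 (95% interval -0.41 to 0.25). These comparisons share control or MPTP mice and are not independent.

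Srxn1 in the delayed treatment experiment had 148, 128 and 179 CPM in control mice, 161, 163 and 136 CPM with irisin alone, 164, 160 and 161 CPM with MPTP and 134, 117 and 140 CPM with MPTP followed by irisin. MPTP mice lay inside the range of the control mice (log2 fold change 0.092, 95% interval -0.16 to 0.35). Mice given MPTP followed by irisin were below all MPTP mice, with a log2 fold change of -0.31 (SE 0.116, adjusted p = 0.9995 from edgeR), and overlapped the control mice. The interaction for Srxn1 was -0.33 (SE 0.164, adjusted p = 0.908 from edgeR).

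Hmox1, which breaks down haem, had 5.38 to 6.67 CPM in control mice, 5.12 to 7.42 CPM in MPTP mice and 5.16 to 6.06 CPM in irisin-MPTP mice of the pre-treatment experiment. The delayed treatment experiment gave 8.06 to 10.3 CPM in control mice, 6.41 to 8.20 CPM with irisin alone, 7.36 to 10.2 CPM with MPTP and 7.89 to 9.65 CPM with MPTP followed by irisin. The groups of Hmox1 overlapped in every comparison, and the largest difference was that of irisin alone from control, -0.29 on the log2 scale (SE 0.161, adjusted p = 0.617 from edgeR).

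Nqo1 had 9.23, 8.14 and 6.86 CPM in control mice of the delayed treatment experiment and 5.95, 6.49 and 5.81 CPM with irisin alone. All mice given irisin alone were below all control mice. The log2 fold change was -0.41 (SE 0.185, adjusted p = 0.554 from edgeR), and its 95% interval ran from a 0.568-fold to a 0.999-fold level. It did not pass the adjusted threshold. MPTP mice (5.22, 8.57 and 6.64 CPM) and mice given MPTP followed by irisin (6.88, 6.79 and 8.61 CPM) overlapped the controls, and the interaction was 0.53 (SE 0.261, adjusted p = 0.908 from edgeR). In the pre-treatment experiment Nqo1 varied from 4.36 to 8.24 CPM among control mice alone, a span that held every MPTP and irisin-MPTP mouse.

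Genes around the pathway were read in whole lists. Of 12 regulators of Nrf2 or partners and rivals of it (Bach1, Cul3, Sqstm1 and the small Maf genes among them), 0 passed the adjusted threshold in any of the 7 comparisons (edgeR). Up to 3 of the 12 per comparison had an unadjusted p under 0.05, where 3.90% to 8.97% of all tested genes did. The count of 3 was reached in MPTP against control of the pre-treatment (6.03% of all tested genes) and the delayed treatment experiment (8.33%). It was also reached in irisin alone against control (8.97%). The smallest adjusted p of the list in MPTP against control of the pre-treatment experiment was that of Nfe2l1 (0.582 from edgeR). Nfe2l1 lay at separate levels in single mice, as given under other observations. Mafg (98.5, 53.8 and 53.2 CPM in pre-treatment control mice) and Gsk3b (18.6, 23.7 and 113.7 CPM in delayed treatment control mice) also differed widely within groups. The part of such steps in these counts was not tested. Maff, a small Maf protein that pairs with Nrf2, had 3.77, 4.08 and 4.18 CPM in MPTP mice of the pre-treatment experiment against 1.58, 1.65 and 3.13 CPM in control mice and 1.91, 1.21 and 2.24 CPM in irisin-MPTP mice. Its log2 fold change was 0.92 for MPTP against control (SE 0.314, adjusted p = 0.818) and -1.17 for irisin before MPTP against MPTP (SE 0.315, adjusted p = 0.521), both from edgeR. Maff in the delayed treatment experiment was at 3.80, 3.05 and 3.17 CPM with MPTP, below the 3.95, 5.13 and 5.62 CPM of the control mice, so its order was the opposite there.

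Of 38 other genes known as Nrf2 targets, 37 were tested in the pre-treatment and 38 in the delayed treatment experiment, and 0 passed in any comparison. Their median log2 fold change was between -0.10 and 0.07 over the 7 comparisons, where that of all tested genes was within 0.01 of 0. For irisin before MPTP against MPTP, 5 were higher and 0 lower with an unadjusted p under 0.05 (6.22% of all tested genes). There 6 higher and 2 lower did not overlap (14.2%). Against control, irisin before MPTP gave 4 higher and 1 lower (7.12%), and 5 higher and 6 lower without overlap (13.6%). MPTP followed by irisin against MPTP gave 0 higher and 1 lower (3.90%), and 0 higher and 4 lower without overlap (10.7%). The smallest adjusted p in this list belonged to Mt2, a metallothionein that binds zinc and scavenges oxidants. Mt2 had 155.6, 131.0 and 177.9 CPM in irisin-MPTP mice against 84.6, 77.3 and 77.1 CPM in MPTP mice and 78.9, 79.5 and 103.0 CPM in control mice. Its log2 fold change against MPTP was 0.96 (SE 0.136, adjusted p = 0.0695 from edgeR), just outside the threshold, and Mt1 gave 0.66 (SE 0.117, adjusted p = 0.151 from edgeR). All irisin-MPTP mice were above all others of that experiment for both metallothioneins. In the delayed treatment experiment, Mt2 had 98.1, 113.6 and 122.2 CPM with MPTP followed by irisin, 109.0, 111.5 and 105.9 CPM with MPTP and 137.4, 149.3 and 122.8 CPM in control mice. There the mice given MPTP followed by irisin overlapped the MPTP mice and lay below all control mice, and the log2 fold change against MPTP was 0.03 (SE 0.0912, adjusted p = 0.9995 from edgeR). Of 25 other antioxidant enzymes, such as superoxide dismutases, catalase and peroxiredoxins, 0 passed in any comparison, with a median log2 fold change between -0.12 and 0.04.

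The immediate early and heat shock genes, which answer neuronal activity and unfolded protein, differed from this. With irisin before MPTP, all 10 were below their level in MPTP mice with no overlap (median log2 fold change -1.02), and 5 passed the adjusted threshold (Hspa1b, Atf3, Jun, Fos and Dnajb1), where 14.2% of all tested genes did not overlap and 0.0707% passed. Against control mice all 10 were also lower with no overlap (median -1.23), and 3 passed (Hspa1b, Fos and Jun), where 13.6% and 0.0707% of all tested genes did so. Hspa1b fell from 19.0, 18.4 and 24.9 CPM in MPTP mice to 2.06, 3.20 and 2.50 CPM in irisin-MPTP mice (log2 fold change -3.00, SE 0.213, adjusted p = 0.000975 from edgeR), with control mice at 14.2, 10.3 and 13.0 CPM. Its near-identical copy Hspa1a makes the split of reads between them uncertain. In the same comparisons Hmox1, which also answers cellular stress, differed by -0.18 from MPTP (95% interval -0.55 to 0.19) and by -0.087 from control (-0.46 to 0.29). MPTP followed by irisin, in the delayed treatment experiment, had 9 of the 10 immediate early and heat shock genes above their level in MPTP mice (median 0.33), of which 5 did not overlap (10.7% of all tested genes), and irisin alone had 8 of 10 above control (median 0.23), of which 2 did not overlap (15.1%), with 0 passing in either (edgeR).

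**Figure D4:**
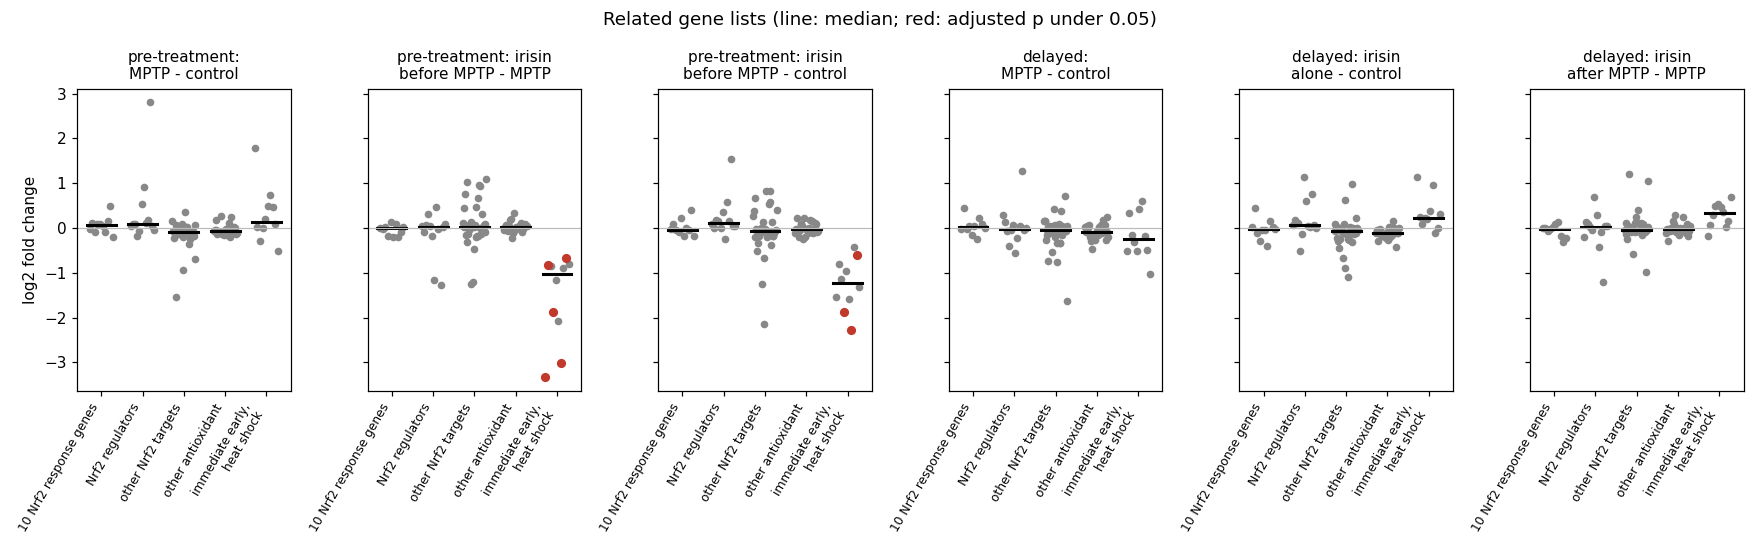
Log2 fold change (y axis) of every tested gene of 5 lists (x axis) in the 6 comparisons of 2 groups, with the list median as a black line and genes with an adjusted p under 0.05 in red. Red points are found in the immediate early and heat shock list alone, in both comparisons of irisin before MPTP, where the list medians are -1.02 and -1.23.

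Markers of other cells moved with some groups. Summed over 5 genes of red blood cells, irisin-MPTP mice had 272 to 548 FPKM, against 636 to 960 FPKM in control and 650 to 981 FPKM in MPTP mice of the pre-treatment experiment. All 5 were lower in irisin-MPTP mice than in MPTP and in control mice. Of them 5 and 4 did not overlap (14.2% and 13.6% of all tested genes), and 0 passed (edgeR). Summed over 8 genes of dopaminergic neurons, irisin-MPTP mice had 104 to 126 FPKM, against 109 to 164 FPKM in control and 111 to 177 FPKM in MPTP mice. Taken singly, all 8 had a negative log2 fold change in irisin-MPTP mice against MPTP and against control mice. In each comparison 2 of the 8 did not overlap (14.2% and 13.6% of all tested genes), and 0 passed the adjusted threshold (edgeR). In the delayed treatment experiment the sum over these 8 genes was 140 to 148 FPKM in control mice and 94.1 to 122 FPKM in MPTP mice. All 8 were lower with MPTP there, 5 did not overlap (16.2%) and 0 passed. Markers of choroid plexus reached 1184 FPKM in MPTP mouse 2 of the pre-treatment experiment and at most 14.6 FPKM in the other 8 mice, and they ranged from 20.9 to 1173 FPKM among the 12 mice of the delayed treatment experiment. Sums of astrocyte markers were 241 to 259 FPKM in irisin-MPTP mice, below the 261 to 286 FPKM of MPTP mice, and overlapped the 244 to 282 FPKM of control mice. The single astrocyte markers were mixed, with 3 of 7 higher and 4 lower than in MPTP mice (median log2 fold change -0.038). Of these 7, 1 did not overlap (14.2% of all tested genes). Sums of endothelial markers were 26.8 to 27.1 FPKM in control mice, above the 22.8 to 24.9 FPKM of MPTP mice and the 24.1 to 25.7 FPKM of irisin-MPTP mice. Against control, 5 of the 6 endothelial markers were lower and 1 was higher in MPTP mice, and likewise in irisin-MPTP mice. In these groups 1 and 2 of the 6 did not overlap the control mice (11.6% and 13.6% of all tested genes). Srxn1 did not overlap between the same groups, nor did Keap1 between irisin-MPTP and control mice. Sums of general neuronal markers were 649 to 658 FPKM in irisin-MPTP mice and 622 to 643 FPKM in control mice, with 616 to 657 FPKM in MPTP mice. Of the 4 neuronal markers, 3 were higher and 1 was lower in irisin-MPTP than in control mice. A single one did not overlap (13.6% of all tested genes), and 0 passed the adjusted threshold (edgeR). Mice given irisin alone, whose Nqo1 values lay below those of all control mice, had lower sums than control mice for astrocytes (289.7 to 303 against 310.2 to 346 FPKM), neurons (699 to 719 against 739 to 775 FPKM) and dopaminergic neurons (131 to 133 FPKM). Taken singly, 5 of 7, 3 of 4 and 7 of 8 of these markers were lower than in control mice. In these lists 2, 1 and 1 markers did not overlap (15.1% of all tested genes), and 0 passed (edgeR). Neuronal sums were also below all control mice with MPTP (707 to 710 FPKM) and MPTP followed by irisin (680 to 731 FPKM). So were dopaminergic sums (94.1 to 122 and 96.1 to 109 FPKM), and Nqo1 overlapped the controls in both groups. Between mice given MPTP followed by irisin and MPTP mice, where Srxn1 did not overlap, the sums of all 9 marker lists overlapped. Microglial sums, 43.8 to 56.2 FPKM and 61.5 to 72.5 FPKM in the experiments, overlapped between all groups compared. All searched markers had reads. The part of these cells in the differences above was not tested.

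The genes whose level followed Srxn1 and Keap1 most closely were named by Pearson's correlation of log2 CPM, as a description over mice that share groups and libraries. Over the 9 mice of the pre-treatment experiment, Srxn1 was most like Cdca5 (0.94), Gm3325 (0.94) and Snai2 (0.93), each at or below 1.29 CPM, and Keap1 was most like Frmpd1 (0.96) and 2810442N19Rik (0.93). Over the 12 mice of the delayed treatment experiment, Srxn1 was most like Gm49380 (0.90), Rcan3 (0.87) and Fndc3b (0.85), and Keap1 was most like Casp8 (0.86) and Aldh3a2 (0.86). None of the 5 closest genes of either was shared between the experiments.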

How the data were processed

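RNA-seq of 21 mice was used, with 66.7 to 75.6 M reads on genes per mouse in the pre-treatment and 48.8 to 77.2 M in the delayed treatment experiment. Per the methods, the authors assigned reads to genes by featureCounts, and they deposited the raw count together with FPKM. The processing notes name HISAT, StringTie, edgeR and the build mm9 without roles, whereas the coordinates in the tables match GRCm38. The use of strand is not given in the sources used here.

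Differences were tested with edgeR 4.0.16 under R 4.3.3, using the quasi-likelihood test (two-sided) after filterByExpr (minimum count 10, minimum total 15) and TMM, with Benjamini-Hochberg adjustment over all tested genes and a threshold of 0.05. All groups of an experiment shared a fit, and the experiments were never joined. The SE was derived from the log2 fold change and the F statistic. Alternatives were DESeq2 1.42.0, limma 3.58.1 on log2(FPKM + 1) and log2(FPKM + 0.1), other filters and scalings, only the compared groups, a replicate block and leaving out each mouse. Leaving out the low Gclm and Txnrd1 mice was chosen after seeing the data. The steps were tested on simulated counts.

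The 10 genes and the lists were chosen with earlier results of these data known. All 10 genes were described, with a fold change where the unadjusted p was under 0.05, and list genes past the adjusted threshold were named. The fold changes of other genes, and the values of Maff, Mt1, Mt2 and the genes under other observations, were added after they were seen. Counts of mice within a group differed by more than sampling noise for every pair (chi-square per gene of at least 40.2 over 9 pairs and 31.0 over 12 pairs).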

Additional observations from a re-analysis of the deposited data

How the results depend on the processing

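None of the 10 genes passed the adjusted threshold in any of 103 combinations of a comparison and an alternative, with a smallest adjusted p of 0.288 (Srxn1, MPTP against control in the pre-treatment experiment, DESeq2). The 5 differences with an unadjusted p under 0.05 kept their direction under every alternative run. Leaving out each mouse gave log2 fold changes of 0.38 to 0.59 for Srxn1 with MPTP and 0.28 to 0.51 with irisin before MPTP against control, 0.18 to 0.26 for Keap1, -0.51 to -0.30 for Nqo1 and -0.36 to -0.23 for Srxn1 with MPTP followed by irisin. Without MPTP mouse 1 of the pre-treatment experiment, Txnrd1 changed sign to 0.033 (MPTP against control) and -0.21 (irisin before MPTP against MPTP). Over all genes, the number called was 5, 16 and 16 in the 3 comparisons of the pre-treatment experiment and spread over 2 to 91, 8 to 169 and 2 to 191 in the alternatives. In the delayed treatment experiment it was 29, 24, 1 and 9, with 10 to 178, 14 to 144, 1 to 34 and 3 to 62, and DESeq2 without a filter gave the highest count each time. The median standard error of the 10 genes was 0.12 to 0.18 on the log2 scale, which is the limit that 3 mice a group set on small differences.

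The replicate numbers mark different animals and were not used to pair mice in the main fit. Deviations from the group means correlated by -0.08 to 0.10 between same-numbered mice. These correlations cannot show whether mice of the same number shared a batch. With the replicate number as a block, 0 of the 10 genes were called in each comparison, and Srxn1 in MPTP against control mice of the pre-treatment experiment differed by 0.49 on the log2 scale (adjusted p = 0.908). The block moved the number of genes called from 5 to 2, 16 to 8 and 16 to 2 in the pre-treatment experiment and from 29 to 17, 24 to 14, 1 to 1 and 9 to 7 in the delayed treatment experiment. Of 9 mice, 4 correlated best with their own number in the pre-treatment experiment, and 0 of 12 did so in the delayed treatment experiment.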

Other observations

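Nfe2l1, the close relative of Nrf2 that governs proteasome genes, was found at separate levels in single mice. In the pre-treatment experiment it had 45.0, 57.7 and 48.5 CPM in control mice, 342.6, 361.1 and 352.1 CPM in MPTP mice and 58.4, 322.6 and 56.2 CPM in irisin-MPTP mice. The delayed treatment experiment gave 452.7, 63.0 and 69.9 CPM in control mice, 72.3, 462.7 and 461.8 CPM with irisin alone, 482.7, 453.1 and 474.5 CPM with MPTP, and 72.3, 466.3 and 69.8 CPM with MPTP followed by irisin. No mouse lay between 72.3 and 322.6 CPM, all 6 mice given MPTP alone were at the upper level, and edgeR gave an adjusted p of 0.582 for MPTP against control in the pre-treatment experiment.

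Cbr1, a carbonyl reductase listed among the other Nrf2 targets, also spread widely within groups. It had 62.2, 17.2 and 56.3 CPM in control mice of the pre-treatment experiment and 12.8, 30.2 and 76.2 CPM in those of the delayed treatment experiment. Trim16, a ubiquitin ligase of the same list, had 8.83, 6.19 and 7.52 CPM with MPTP and 3.56, 4.14 and 3.69 CPM with MPTP followed by irisin, a log2 fold change of -0.98 (SE 0.247, adjusted p = 0.9995 from edgeR). The control mice of that experiment, at 6.29, 3.71 and 3.76 CPM, overlapped both groups. Dcaf11, a substrate receptor that takes Nrf2 to a ligase other than that of Keap1, had 86.1, 78.5 and 79.7 CPM in control mice of the delayed treatment experiment and 67.4, 52.4 and 50.1 CPM with irisin alone (log2 fold change -0.52, SE 0.159, adjusted p = 0.435 from edgeR). Mice given MPTP (53.9, 55.0 and 76.2 CPM) or MPTP followed by irisin (51.7, 69.3 and 65.6 CPM) were also below all control mice for Dcaf11. Neither Trim16 nor Dcaf11 passed the threshold.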
